A study of Arabidopsis thaliana with 4 samples.

Results

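The genes described here belong to the phosphate starvation response of Arabidopsis thaliana, and they were followed in shoot apices of wild-type and as2-1 plants grown with or without a DNA topoisomerase I inhibitor. The members are a given list of 10 probe set IDs, chosen with the measured values known, and 9 of them have a row among the 22746 probe sets of each array. They are SPX1, SPX3, PS2 (AT1G73010), PAP17, AT1G17710, SRG3, SQD1, SQD2 and AT5G20790. The gene names are those given with the list. The platform's annotation table lists 1 of the 9 probe sets, 246001_at, and pairs it with AT5G20790. The tenth ID, 266184_at for the phosphate transporter PHT1;4, was not analysed here because no row carries that ID.

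Plants sense low phosphate in the shoot as well as in the root. When phosphate is plentiful, SPX proteins bind inositol pyrophosphates and hold back PHR1, the transcription factor that switches on the phosphate starvation genes. When phosphate runs short, PHR1 is released, and its targets raise phosphate uptake, free phosphate from organic molecules, and replace phospholipids in membranes with sulfolipids and galactolipids. Transcripts of these genes are therefore widely used as readouts of phosphate status.

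Each of 4 groups was measured on 1 array of biotin-labelled RNA. The groups were wild type (Col-0) with the solvent DMSO, Col-0 with 10-hydroxycamptothecin (10H-CPT), as2-1 with DMSO and as2-1 with 10H-CPT. 10H-CPT is an inhibitor of DNA topoisomerase I from the camptothecin family, and as2-1 is a mutant allele, in the Col-0 background, of Asymmetric Leaves2, a nuclear protein needed for normal leaf polarity. All plants stood on Murashige and Skoog agar until day 14, with 16 light and 8 dark hours a day. The dose of the inhibitor and the number of plants behind a sample are not given in the labels.

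The values are MAS5 signals on a linear scale. Signals below 46.6, the 40th percentile over the 4 arrays together, were set to that floor before ratios were taken, and "at least" marks a ratio with 1 of its signals at the floor. Between 13590 and 13711 probe sets lay above the floor on each array, and the number of arrays limits the precision. There are no replicates, so no ratio below has an error or a test. Because the members were chosen from these same values, all ratios describe these arrays only. In whole shoot apices, fewer cells of a type and less RNA per cell cannot be told apart.

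All 9 members had lower signals on 10H-CPT than on DMSO in both genotypes. In Col-0 they were at least 2-fold lower in 9 of 9 cases, where 2.1% of the 14091 measured probe sets were that low. In as2-1 it was again 9 of 9, beside 2.3% of 14244. In both genotypes together it was 9 of 9, beside 0.989% of the 13748 probe sets measured in both pairs of arrays. None of the 9 was at least 2-fold higher on 10H-CPT, where 1.55% of probe sets were so in Col-0, 2.96% in as2-1 and 0.786% in both. The list was put together from this contrast, so these counts describe the choice of members. The median log2 ratio of the members was -2.43 or lower in Col-0 and -2.09 or lower in as2-1, whereas over all measured probe sets it was -0.0067 and -0.021.

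**Figure D1:**
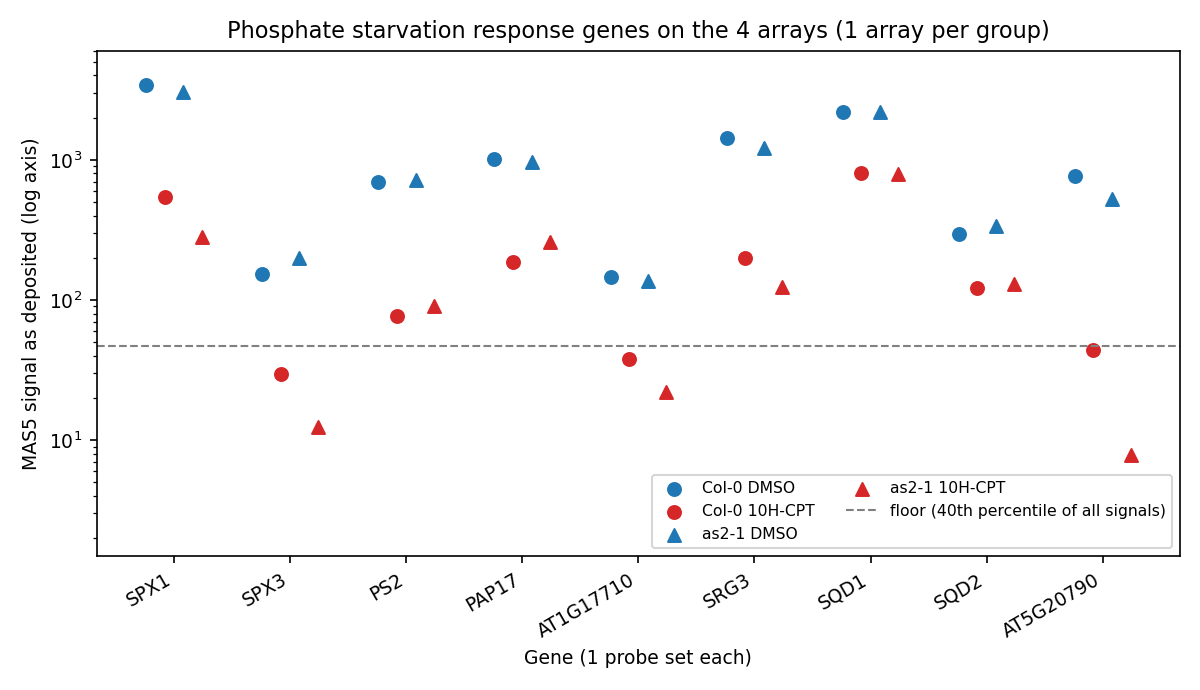
MAS5 signals as deposited (log axis) of the 9 genes on the 4 arrays, 1 point per array; circles are Col-0, triangles as2-1, blue DMSO and red 10H-CPT, and the dashed line is the floor of 46.6. In every gene both red points lie under both blue points, and the red points of SPX3, AT1G17710 and AT5G20790 lie under the floor.

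The first members are the sensors. SPX1 and SPX3 encode SPX domain proteins that act as brakes on the response, SPX1 by binding PHR1, and both are themselves PHR1 targets. In wild type, the signal of SPX1 (246071_at, AT5G20150) was 3443.9 without the inhibitor and 539.5 with it, and in the mutant 3067.6 and 279.3. Both inhibitor arrays were well under both DMSO arrays, and the treated mutant was the lowest of all. The inhibitor went with a 6.38-fold lower level in wild type and an 11.0-fold lower one in the mutant. SPX3 (266132_at, AT2G45130) had wild-type signals of 152.6 on DMSO and 29.8 with the inhibitor, and mutant signals of 198.4 and 12.4. Its inhibitor signals lay under the floor in both genotypes, so its level there is only bounded: lower by at least 3.27-fold in wild type and by at least 4.26-fold in the mutant.

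The next members release phosphate from other molecules. PS2 encodes a phosphatase described as acting on pyrophosphate, and its relative AT1G17710 encodes a phosphoethanolamine and phosphocholine phosphatase. PS2 (262369_at) gave 694.8 on DMSO and 77.3 with the inhibitor in wild type, against 713.8 and 90.4 in the mutant. The genotypes were close to each other under either treatment, and the treatments were far apart, by 8.98-fold in wild type and by 7.90-fold in the mutant. AT1G17710 (259399_at) was dim even without the inhibitor, with DMSO signals of 145.5 in wild type and 136.8 in the mutant, and its signals of 38.2 and 21.9 on 10H-CPT lay under the floor. Its reduction was at least 3.12-fold in wild type and at least 2.94-fold in the mutant. With a floor at the 60th percentile of all signals (137.3), the log2 ratios of AT1G17710 and SPX3 in Col-0 were only bounded at -0.082 and -0.15 or lower. Both genes therefore dropped out of the count past 2-fold, and 7 of 9 members stayed in it. At that floor, 0.632% of all measured probe sets were at least 2-fold lower in both genotypes.

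PAP17 (258158_at, AT3G17790) encodes a purple acid phosphatase, one of the enzymes that free phosphate from organic esters. Its signals in wild type were 1012.0 on DMSO and 187.4 with the inhibitor, and those in the mutant 964.3 and 259.7. The DMSO arrays were alike, and on 10H-CPT the mutant was the higher of the genotypes, unlike for SPX1. The reduction was 5.39-fold in wild type and 3.72-fold in the mutant.

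The third set of members remodels membrane lipids. SRG3, also called GDPD1, is a glycerophosphodiester phosphodiesterase that breaks down what is left of phospholipids once their fatty acids have been removed. SQD1 and SQD2 carry out successive steps of sulfolipid synthesis, by which plastid membranes keep an anionic lipid without phosphate. SRG3 (258856_at, AT3G02040) had a wild-type signal of 1425.4 on DMSO that compared with 199.2 under the inhibitor, and mutant signals of 1208.3 and 123.0. As with SPX1, the treated mutant was the lowest array, and the reduction was 7.15-fold in wild type and 9.83-fold in the mutant.

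The sulfolipid genes had the smallest reductions among the members measured above the floor on all arrays. SQD1 (253386_at, AT4G33030) had 2176.4 on DMSO and 800.2 with the inhibitor in wild type, and 2207.5 and 790.4 in the mutant. SQD2 (251143_at, AT5G01220) had 297.0 and 122.3 in wild type and 337.3 and 129.7 in the mutant. Both remained above the floor on the inhibitor. The reduction of SQD1 was 2.72-fold in wild type and 2.80-fold in the mutant, and that of SQD2 was 2.43-fold and 2.60-fold. At a threshold of 3-fold, SQD1, SQD2 and AT1G17710 left the count for both genotypes together. The other 6 of 9 members stayed in it, beside 0.276% of all measured probe sets.

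AT5G20790 (246001_at) is a gene for which no function is given here. Its wild-type signal was 761.6 on DMSO and 43.9 with the inhibitor, and its mutant signal 525.3 and 7.9. Both inhibitor signals lay under the floor. The reduction was at least 16.3-fold in wild type and at least 11.3-fold in the mutant, and these bounds differ between the genotypes only because the DMSO signals do.

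Probe set 266184_s_at has the same number as the member ID without a row. The suffix _s_at marks a probe set whose probes match several transcripts, and no source used here pairs this one with a gene, so its values stand apart from those of the 9 members. Wild type gave 279.7 on DMSO and 106 with the inhibitor, and the mutant 370.6 and 173.3. This probe set too was lower with the inhibitor, by 2.64-fold in wild type and by 2.14-fold in the mutant.

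**Figure D2:**
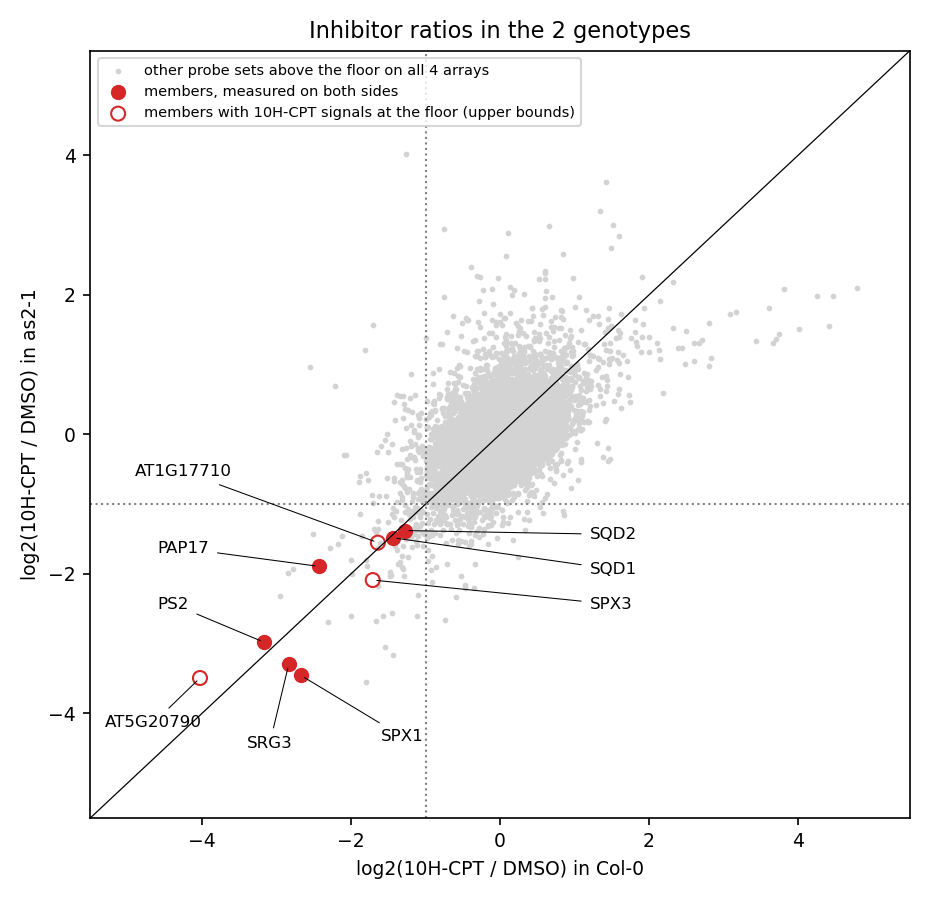
Log2 ratio of 10H-CPT over DMSO in Col-0 (x axis) and in as2-1 (y axis) for the 9 members (red) and for others whose 4 signals all exceeded the floor (grey); open circles are members whose 10H-CPT signals were at the floor, dotted lines mark 2-fold lower and the solid line equal ratios. The members lie at the lower left, with PS2 at -3.17 and -2.98 and SQD2 at -1.28 and -1.38.

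Ranks place the members among other transcripts on these arrays. The list was put together from the contrast of 10H-CPT with DMSO, so the ranks describe the choice of members. Ranks could be given for the 6 members above the floor on all arrays, among the 12717 probe sets of that kind. By the smaller of the 2 reductions on 10H-CPT, PS2 ranked 1, SRG3 ranked 2 and SPX1 ranked 3. PAP17 ranked 10, SQD1 ranked 29 and SQD2 ranked 44. Within these 12717 probe sets, 4 of the 20 with the greatest reductions shared by both genotypes were members. SPX3, AT1G17710 and AT5G20790 were not ranked, nor was any other probe set under the floor on an array. The bounds of AT5G20790, at least 16.3-fold in Col-0 and 11.3-fold in as2-1, exceeded the reductions of PS2 at rank 1. In Col-0 alone PS2 ranked 1, SRG3 ranked 4 and SPX1 ranked 6, and in as2-1 alone SPX1 ranked 2, SRG3 ranked 3 and PS2 ranked 6.

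The next comparison asked whether the as2-1 mutation alone went with other levels of these genes. On DMSO, none of the 9 members was 2-fold lower or higher in as2-1 than in Col-0, beside 1.09% of 14069 measured probe sets that were lower by as much and 1.04% that were higher. The members' log2 ratios of as2-1 over Col-0 ran from -0.53 for AT5G20790 to 0.38 for SPX3, with a median of -0.068, beside a median of 0.0079 over all measured probe sets. For AT5G20790 this means a signal 1.45-fold lower in the mutant. The SD of this log2 ratio was 0.35 over the same 12717 probe sets, which is a spread between genes on a single pair of arrays and not a replicate error. The share of those probe sets with a larger absolute ratio between the genotypes was 38.5% for SRG3, 48.3% for SQD2, 52.7% for SPX1, 79.0% for PAP17, 87.3% for PS2 and 92.9% for SQD1.

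On 10H-CPT, the genotypes could be compared for 6 members, since SPX3, AT1G17710 and AT5G20790 lay under the floor in both. None of the 6 was 2-fold lower or higher in as2-1, beside 1.57% of 14147 probe sets that were lower by as much and 2.69% that were higher. SPX1 was 1.93-fold lower in as2-1, and 4.18% of the 12717 probe sets had a larger absolute ratio. SRG3 was 1.62-fold lower, and 9.17% had a larger one. PAP17 was 1.38-fold higher in as2-1, PS2 was 1.17-fold higher, SQD2 was 1.06-fold higher and SQD1 was 1.01-fold lower. The members thus did not share a direction between the genotypes on the inhibitor. With a floor at the 20th percentile (9.90), 2 members, SPX3 and AT5G20790, counted as at least 2-fold lower in as2-1 on 10H-CPT. The share of all probe sets that low at this floor was not computed, so this count has no background beside it.

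**Figure D3:**
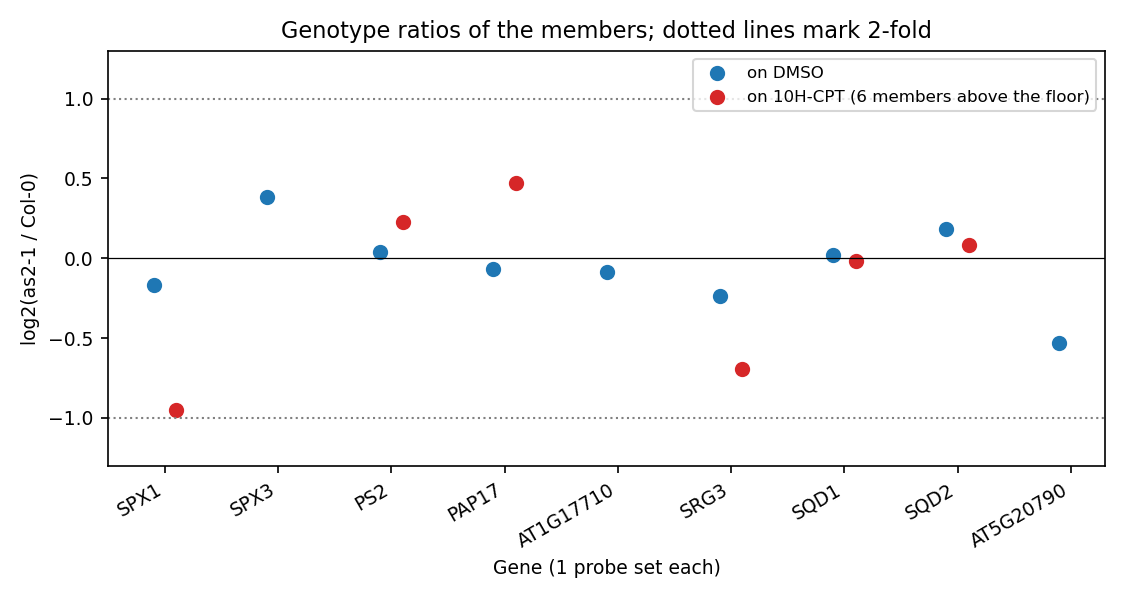
Log2 ratio of as2-1 over Col-0 for each member on DMSO (blue, 9 members) and on 10H-CPT (red, 6 members above the floor), 1 value per pair of arrays; dotted lines mark 2-fold. All points lie within 2-fold, and the red points reach from -0.95 for SPX1 to 0.47 for PAP17.

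The last comparison was that of the 2 inhibitor ratios, which asks whether the reduction depended on the genotype. The log2 ratio in as2-1 minus that in Col-0 was -0.79 for SPX1 and -0.46 for SRG3, that is, more reduced in the mutant. It was 0.54 for PAP17 and 0.18 for PS2, less reduced in the mutant, and -0.042 for SQD1 and -0.10 for SQD2. None of the 6 reached a difference of 2-fold, beside 3.36% of the 12717 probe sets. A larger absolute difference was found in 7.31% of those probe sets for SPX1, in 18.4% for PAP17 and in 91.2% for SQD1. With 1 array per group, none of these differences was tested.

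Other genes of phosphate homeostasis could be followed only in small part. Of 64 further genes listed for sensing, transport, phosphatases and lipid remodelling, 7 have a probe set paired with a single gene in the platform's table, on 8 probe sets, and none of them belongs to lipid remodelling. Only 6 of the 8 were measured in at least 1 genotype. Of these 6, that of WRKY6 was measured in as2-1 only. On 10H-CPT, 1 of the 6 was at least 2-fold lower in each genotype. Beside it stand 2.1% of all measured probe sets in Col-0, 2.3% in as2-1 and 0.989% in both. None was at least 2-fold higher, beside 1.55% in Col-0 and 2.96% in as2-1. The lower probe set was that of AT1G13750 (256100_at), which encodes a purple acid phosphatase called PAP1. AT1G13750 had wild-type signals of 257 without and 52.6 with the inhibitor and mutant signals of 198.9 and 64, a reduction of 4.88-fold and of 3.11-fold. Both inhibitor arrays again lay under both DMSO arrays. With the floor at 137.3, both inhibitor signals lay under it, so the reduction was only bounded. At that floor this gene was no longer counted past 2-fold in either genotype.

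The rest of these genes had smaller ratios or no measurable level. PHT5;1 (AT1G63010, 261107_at), a vacuolar phosphate transporter with an SPX domain, had 801.6 without and 528.7 with the inhibitor in wild type, and 858.0 and 773.2 in the mutant, a difference of 1.51-fold and of 1.11-fold. SIZ1, a SUMO ligase that modifies PHR1, had 247.3 and 244.5 in wild type and 225.4 and 224.8 in the mutant on 1 probe set (247630_at), while its other probe set lay under the floor. LPR2, a ferroxidase of the root's response to low phosphate, was 1.52-fold lower with the inhibitor in wild type and 1.15-fold higher in the mutant. The transcription factor gene WRKY42 lay under the floor on all arrays, and WRKY6 and LPR1 were at or near it. The median log2 ratio of the measured probe sets among the 8 was -0.60 in Col-0 and -0.19 or lower in as2-1.

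The probe sets outside the list with the most similar pattern were found by the root mean square distance, over the 4 arrays, between each log2 profile centred on its own mean and the median centred profile of the 9 members. Among 12766 candidates above the floor on both DMSO arrays, the 8 closest lay at 0.095 to 0.20 on the log2 scale, where the median distance was 1.07 and the members themselves lay at 0.15 (PAP17) to 0.84 (AT5G20790). In order of distance they were 263851_at (AT2G04460), 245226_at (AT3G29970), 260201_at (AT1G67600), 250515_at (AT5G09570), 256100_at (AT1G13750), 251026_at (AT5G02200), 252269_at and 247592_at. The annotation table names the gene for 6 of these. AT1G13750 is the purple acid phosphatase described above, and AT5G02200 is FHL, which helps phytochrome A into the nucleus. FHL had 219.2 and 54.6 in wild type and 259.5 and 74.1 in the mutant, a reduction of 4.01-fold and of 3.51-fold.

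The distance favours genes of middling reduction and depends on the floor. Of the 8 probe sets, 5 had a 10H-CPT signal under the floor, and 1 of the 8 remained among the closest with a floor at the 20th percentile (245226_at) and 1 with a floor at the 60th (252269_at).

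**Figure D4:**
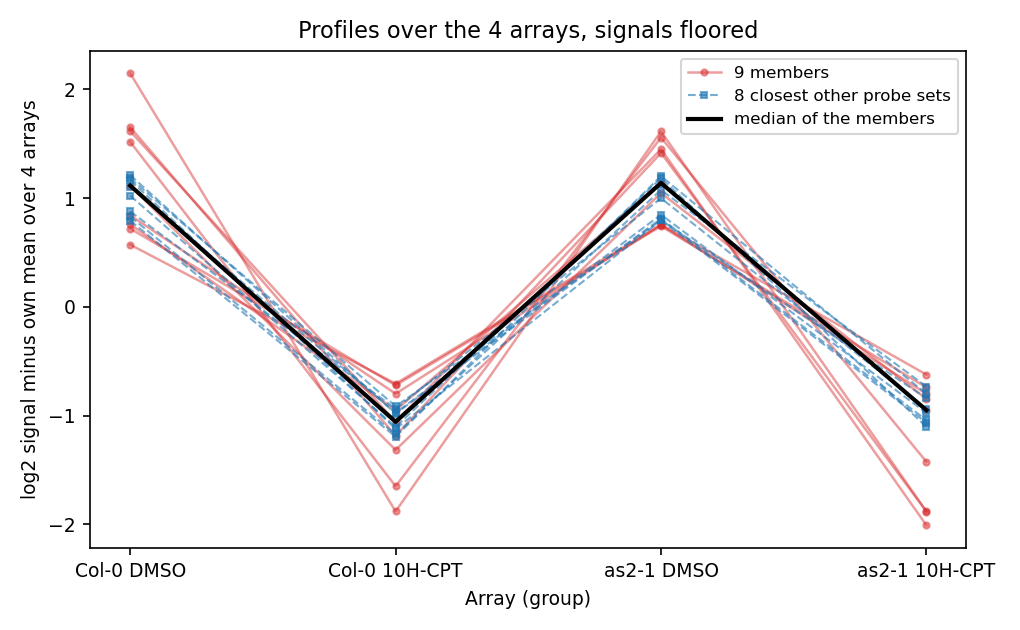
Log2 signal of each probe set minus its own mean over the 4 arrays, by group, for the 9 members (red), their median (black) and the 8 closest other probe sets (blue, dashed), with signals under the floor set to it. The median of the members is 1.12 and 1.14 on the DMSO arrays of Col-0 and as2-1 and -1.06 and -0.95 on their 10H-CPT arrays.

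Markers of the tissue could be checked for few genes. Of 13 shoot meristem and leaf primordium genes, 3 have a named probe set: PHV and YAB3, which act in leaf polarity, had signals between 409.0 and 640.3 and between 180.1 and 254.1, and CLV3, expressed in a few stem cells, lay under the floor on all arrays. Of 10 root genes, 1 has a named probe set. This was PYK10, a beta-glucosidase of roots and hypocotyls, with 3487.7 without and 4393.5 with the inhibitor in wild type, and 3826.4 and 5603.4 in the mutant. PYK10 was 1.26-fold and 1.46-fold higher on 10H-CPT, the direction opposite to that of the members, and its part in their ratios was not tested. Neither Asymmetric Leaves2 nor the topoisomerase I genes have a named probe set, so the labels could not be checked against them.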

How the data were processed

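The authors deposited linear signal intensities, with 1 value for each probe set on each array. Per the submitters' processing notes they were made with MAS5, whose version, scaling target and detection calls the sources here do not state. Trimmed means of these intensities, 2% left out at each end, lay between 198.3 and 198.5. Arrays were rescaled to a common trimmed mean (factors 0.9994 to 1.0006), floored at the 40th percentile, and put on a log2 scale. Signals are printed as deposited, and ratios are of rescaled signals. A probe set was measured in a pair when 1 of the 2 arrays was above the floor. The number of arrays limits the precision, no test was run, and calls are ratios past 2-fold. Levels are compared within a probe set only.

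The members and gene lists were chosen with earlier results of these data known. All members were named, with list genes past 2-fold in both genotypes and the 8 closest profiles, where _s_at and _x_at probe sets were left out; the other list genes and markers with a named probe set were named for completeness, after their values were seen. The platform table pairs 13513 probe sets with 1 gene and 503 with several, and does not list 8730. Loci come from RefSeq (TAIR10.1). The planned promoter motif and protein comparisons were not run, since no sequences were used here. The alternatives were no rescaling, quantile normalization, a floor at the 20th or the 60th percentile, a threshold of 1.5-fold or 3-fold, and dropping _s_at and _x_at probe sets from the background. Values were computed in Python 3.11.15 with pandas 2.3.3, scipy 1.17.1 and numpy 2.4.6, and figures drawn with matplotlib 3.10.9.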

Additional observations from a re-analysis of the deposited data

How the results depend on the processing

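No member changed direction on 10H-CPT under any alternative run, except that AT1G17710 in as2-1 lay wholly under the higher floor and gave no ratio there, and the number at least 2-fold lower in both genotypes was 9 with values as deposited, quantile normalization or the lower floor, and 7 with the higher floor. Skipping the rescaling, or dropping _s_at and _x_at probe sets, is a weak check here, as it hardly touches the members. With the floor at the 20th percentile, the median log2 ratio on 10H-CPT in as2-1 was -2.98 (-2.09 in the main setting), 2 members, SPX3 and AT5G20790, counted as lower in as2-1 than in Col-0 on 10H-CPT (0), 2 list genes, AT1G13750 and WRKY6, were past 2-fold lower in wild type with the inhibitor (1), and 1 of the 8 closest probe sets was shared. With the floor at the 60th percentile, 0 list genes were past 2-fold lower with the inhibitor in wild type and 0 in the mutant, and again 1 of the 8 closest was shared. At 1.5-fold, 3 list genes, AT1G13750, LPR2 and PHT5;1, were past the threshold in wild type with the inhibitor, and 2 members, SPX1 and SRG3, were lower in as2-1 on 10H-CPT. These shifts come from where the floor or the threshold lies. For a single genotype, and between the genotypes, the share of all probe sets was computed in the main setting only. The counts of list genes and of members lower in as2-1 at other settings therefore have no background beside them. For both genotypes together, the share of all probe sets at least 2-fold lower was 0.989% with values as deposited and 0.996% with quantile normalization. It was 1.3% with the lower floor and 0.632% with the higher floor. At the other thresholds, 3.16% were lower by at least 1.5-fold and 0.276% by at least 3-fold. Signals near or under the floor, those of SPX3, AT1G17710 and AT5G20790 on 10H-CPT, limit what can be said of these genes. Each group has 1 array, so no replicate could be left out or used as a block. A fit of the inhibitor with genotype as a block, which leaves 1 residual degree of freedom, was not run, since the members were chosen from this contrast.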

Other observations

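Between the members in the ranking of probe sets reduced in both genotypes stood other probe sets. Those without a gene in the annotation table could not be checked against the phosphate lists. Named after their values were seen, the 3 with a gene there among the first 10 were 264846_at, 250942_at and 261221_at. Their genes are outside the phosphate lists. Probe set 264846_at (AT2G17850) ranked 5, with a reduction of 4.95-fold in wild type and 6.44-fold in the mutant. Probe set 250942_at (AT5G03350) ranked 7, with 7.17-fold and 3.98-fold, and 261221_at (AT1G19960) ranked 9, with 6.89-fold and 3.80-fold. Signals of AT5G03350 on DMSO were 1235.3 in wild type and 421.2 in the mutant, and those of AT1G19960 were 1379.7 and 712.5, so both were lower in the mutant without the inhibitor. Those of AT2G17850 were 367.2 and 403.8.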
